A study of Homo sapiens with 8 samples.

Results

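The genes described here are 10 members of the matrix metalloproteinase (MMP) system: the proteases MMP1, MMP2, MMP7, MMP9, MMP10, MMP14 and MMP15 and the tissue inhibitors of metalloproteinases TIMP1, TIMP2 and TIMP3. They were taken by gene symbol from the annotation table of the array platform, which gave 16 of the 22277 probe sets and 10 of the 11963 genes that could be named. Expression was measured on Affymetrix 3′ arrays in 8 samples of the human cancer cell lines Caco-2, a colorectal adenocarcinoma line, and HUG1N, a gastric cancer line that the labels also write HuG-1. The 4 groups of 2 arrays were Caco-2 cells infected with a short hairpin RNA (shRNA) targeting the transcription factor GATA6, Caco-2 control cells, HUG1N cells with such an shRNA, and HUG1N control cells. The study examines GATA6 in gastric cancer.

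The labels repeat 1 treatment text, infection with a GATA6 shRNA followed by puromycin selection, on the control arrays as well, so what the control cells received is not known from them. They name no number of hairpins, no clone and no length of selection, and they leave unsaid whether paired arrays are separate cultures. All p-values thus rest on array-to-array spread that may be purely technical. In cell populations of this kind, fewer cells expressing a gene and less RNA per cell cannot be told apart.

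Matrix metalloproteinases are zinc-dependent proteases, made as inactive proforms, that cut collagens, laminins, fibronectin and many cell-surface proteins. Most are secreted, while the membrane-type members are held at the cell surface and can activate secreted proforms. TIMPs bind the active site and block it. In tumours of the gut the system is studied for matrix breakdown and invasion, and many MMP promoters are known to respond to AP-1 factors, the FOS and JUN families.

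Values are the authors' log2 expression values, on which 1 unit is a 2-fold step and 2.08 is the lowest value of every array. A gene was tested if it exceeded log2 4 in at least 2 arrays. By that filter 7 of the 10 members were tested, and MMP2, MMP9 and MMP10 were not. The filter favours genes that are high in 1 group, so the tested members are not a sample of the family. Genes with a limma adjusted p under 0.05, over the 7696 genes tested, are called.

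The targeted gene, GATA6, fell modestly in Caco-2. Its values were 12.23 and 12.02 in Caco-2 shRNA arrays, against 12.63 and 12.45 in Caco-2 control arrays, a change of -0.42 (SE 0.10, adjusted p = 0.0224). In HUG1N it was 12.26 and 12.22 in shRNA arrays, against 12.54 and 12.45 in control arrays, a change of -0.25 (SE 0.10) that did not pass the test (adjusted p = 0.0879). All 8 epithelial markers, EPCAM and CDH1 among them, exceeded log2 4 in every group, and of them 4 rose and 1 fell in Caco-2, where 19.5% of all genes tested rose and 19.2% fell, and 6 rose in HUG1N, where 24.7% of all genes rose. Of 12 fibroblast markers, 2 to 3 exceeded log2 4 in a group (FBLN1 and COL1A1 in each group), and COL1A2, COL3A1, PDGFRA, PDGFRB and DCN did so in none. Of the 4 fibroblast markers tested, 2 rose in Caco-2 (LUM and FBLN1), against 19.5% of all genes tested. In HUG1N 1 fell (ACTA2), against 23.9% of all genes tested. LUM passed the filter only through Caco-2 shRNA arrays and ACTA2 only through HUG1N control arrays. The filter thus largely fixed these 2 calls, and the counts are no result about the markers. LUM averaged 7.53 in Caco-2 shRNA and 3.43 in Caco-2 control arrays. FBLN1 averaged 10.16 in Caco-2 shRNA and 9.32 in Caco-2 control arrays. ACTA2 averaged 3.18 in HUG1N shRNA and 6.28 in HUG1N control arrays, at least 4.85-fold lower. The summed linear level of the 12 was 1370 to 1410 in Caco-2 shRNA and 706 to 714 in Caco-2 control arrays, and 118 in each HUG1N shRNA array and 165 to 207 in HUG1N control arrays. Of the 15 immune markers on the array, 2 were over log2 4 in Caco-2 control and 0 in each other group, and PTPRC did so in none. Their summed level was 70.7 to 84.6 in Caco-2 shRNA and 107 to 181 in Caco-2 control arrays, and 68.1 to 70.5 in HUG1N shRNA and 67.4 to 68.2 in HUG1N control arrays. The immune marker AIF1 was called lower in Caco-2, but it passed the filter only through Caco-2 control arrays, which largely fixed that call. Of 6 endothelial markers, PECAM1 alone exceeded log2 4, in Caco-2 arrays. It had 4.76 and 3.85 in Caco-2 shRNA arrays, against 5.07 and 5.51 in Caco-2 control arrays. Its change was -0.99 (SE 0.29, limma adjusted p = 0.04), with values near log2 4. The part of these markers in the results was not tested.

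The HUG1N shRNA arrays stood apart in control probe sets. The gap between the 3′ and 5′ probe sets of ACTB, which widens as RNA is degraded or shortened in labelling, was 3.69 and 3.77 in HUG1N shRNA arrays, against 2.35 and 2.68 in HUG1N control arrays. It was 1.46 and 1.65 in Caco-2 shRNA arrays, against 1.91 and 1.94 in Caco-2 control arrays. The same gap for GAPDH was smaller, at 0.59 to 0.67 in HUG1N shRNA and 0.37 to 0.44 in HUG1N control arrays. For GAPDH it was 0.06 to 0.09 in Caco-2 shRNA and 0.15 to 0.17 in Caco-2 control arrays. The mean of the BioB hybridisation controls was 4.52 and 4.77 in HUG1N shRNA arrays, against 9.89 and 10.03 in HUG1N control arrays, and 9.32 to 9.62 over the Caco-2 arrays. The other hybridisation controls averaged 13.17 and 13.25 in HUG1N shRNA arrays, against 13.37 and 13.49 in HUG1N control arrays. The part of these differences in the HUG1N results below was not tested.

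The collagenase fell in both lines, and by more in HUG1N. MMP1, the interstitial collagenase that opens fibrillar collagens, had log2 values of 8.78 and 8.53 in HUG1N shRNA arrays, against 12.92 and 12.63 in HUG1N control arrays. It had 6.54 and 5.99 in Caco-2 shRNA arrays, against 8.31 and 8.40 in Caco-2 control arrays. In each line the shRNA arrays were the lower ones, with no overlap, and MMP1 exceeded log2 4 in every array. The change was -4.12 in HUG1N (SE 0.20, 95% interval -4.60 to -3.63, adjusted p = 6.58e-05), which is 17.4-fold lower. In Caco-2 it was -2.09 (SE 0.20, 95% interval -2.58 to -1.60, adjusted p = 0.000616), or 4.25-fold lower. The HUG1N effect minus the Caco-2 effect was -2.03 (SE 0.28, adjusted p = 0.00256). Of the 7696 genes tested, 5 had a larger fall than MMP1 in HUG1N and 84 in Caco-2. By level, HUG1N control stood highest with a mean of 12.77, HUG1N shRNA (8.66) and Caco-2 control (8.35) followed with a difference that was not tested, and Caco-2 shRNA stood lowest at 6.27.

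**Figure D1:**
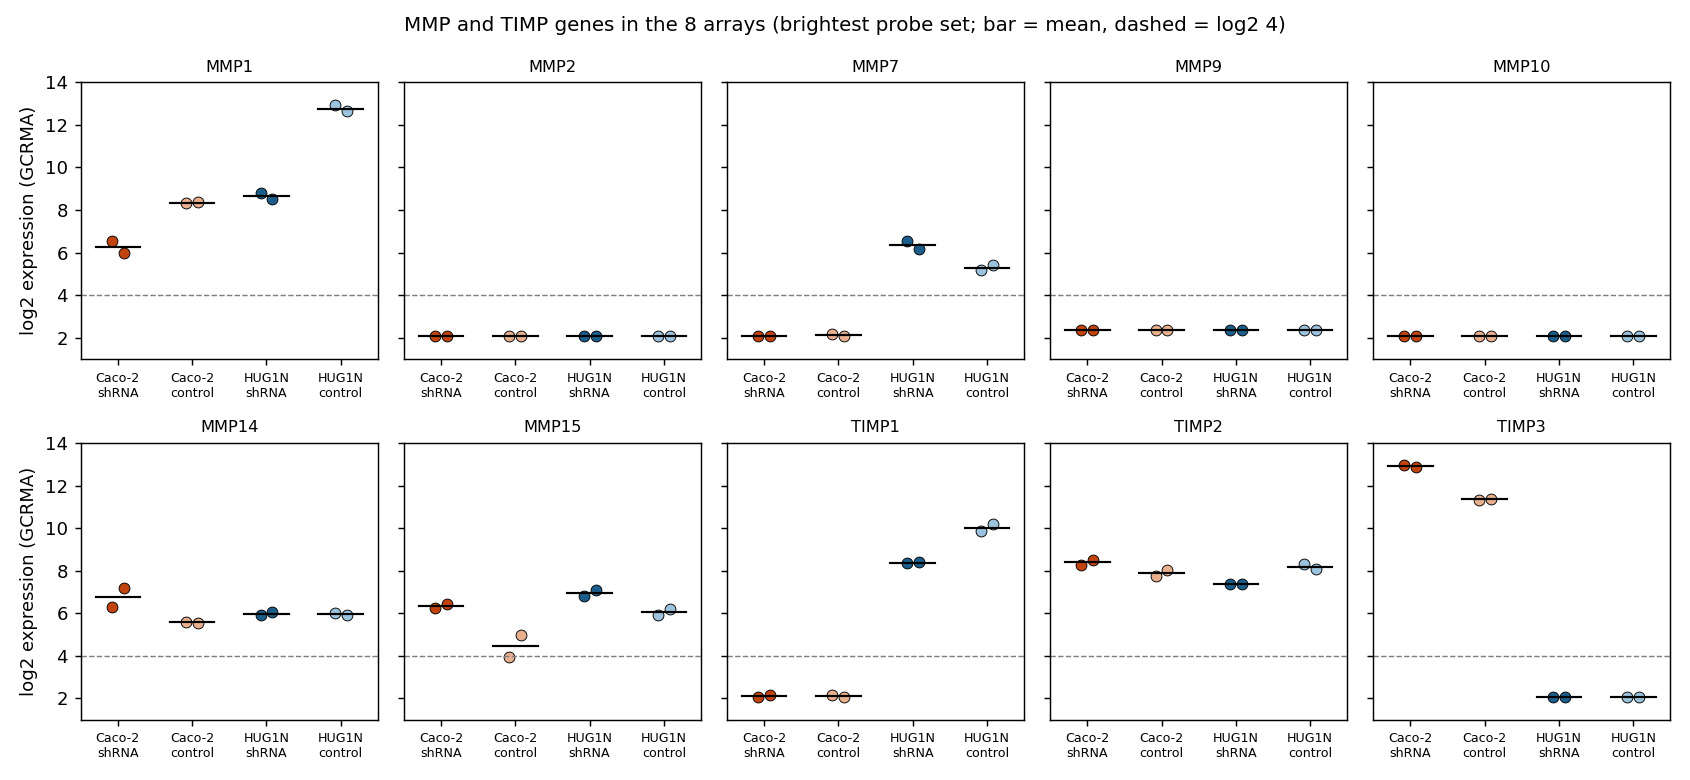
Log2 expression (y axis) of the 10 genes in the 8 arrays, by group along the x axis. Points are arrays, bars are group means of 2 arrays, and the dashed line marks log2 4. MMP1 is lower in both shRNA groups, TIMP1 and MMP7 exceed the line in HUG1N arrays alone, TIMP3 exceeds it in Caco-2 arrays alone, and MMP2, MMP9 and MMP10 stay under it throughout.

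Of the secreted proteases other than MMP1, MMP7 was the single one measured above log2 4, in HUG1N. MMP7, or matrilysin, is a short protease made by epithelial cells that also cuts cell-surface proteins. Its log2 values were 6.55 and 6.17 in HUG1N shRNA arrays, against 5.16 and 5.41 in HUG1N control arrays, so that the groups did not overlap and both shRNA arrays were higher. The change was 1.08 (SE 0.15, 95% interval 0.72 to 1.43, adjusted p = 0.00173), or 2.11-fold higher, opposite in sign to MMP1 in the same arrays. It ran from 0.89 to 1.27 over 18 alternatives. The SE also draws on the Caco-2 arrays, which lay near the floor and hardly varied, so SE and p may be too small. In Caco-2, MMP7 lay at 2.08 and 2.08 in shRNA arrays, against 2.17 and 2.08 in control arrays, which allows no fold change.

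The gelatinases and the stromelysin were at the low end in every array. MMP2 and MMP9, the gelatinases that cut basement membrane collagen and denatured collagen, averaged 2.08 and 2.37 on the log2 scale in each of the 4 groups. MMP10, a stromelysin of epithelial cells, ran from 2.08 to 2.09 over the 8 arrays. Each was read by 1 probe set. None of these 3 genes rose over log2 4 in any group, and a fall could not have been seen.

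MMP7, MMP10 and MMP1 lie in a run of 9 MMP genes on chromosome 11, in the order MMP7, MMP20, MMP27, MMP8, MMP10, MMP1, MMP3, MMP12 and MMP13. In these arrays MMP1 and MMP7 exceeded log2 4 in 2 or more arrays. MMP20, the enamel protease, did so in 1 array, HUG1N control replicate 1, at 4.54, with 2.08 in the other HUG1N control array and in both HUG1N shRNA arrays. The other 6 genes of the run exceeded it in none.

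The promoters of MMP7 and MMP10 are shown because these genes lie in the same run and their promoters share a layout of motif matches. The letters are the 250 bases before the annotated start in RefSeq, build GRCh38.p14, and 6 of the 10 members had an entry in that table. MMP1, MMP2, MMP9 and TIMP2 had none, so no motif was searched in their promoters. Capitals mark matches to the AP-1 motif TGANTCA and to the TATA motif TATAAA, both searched on both strands with no overlap between them.
MMP7 (chr11:102530748-102530997, minus strand): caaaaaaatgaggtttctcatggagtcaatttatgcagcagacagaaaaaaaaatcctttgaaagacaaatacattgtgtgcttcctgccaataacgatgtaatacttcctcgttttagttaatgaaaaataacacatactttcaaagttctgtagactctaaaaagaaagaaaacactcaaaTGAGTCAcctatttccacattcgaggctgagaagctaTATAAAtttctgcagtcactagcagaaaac
MMP10 (chr11:102780629-102780878, minus strand): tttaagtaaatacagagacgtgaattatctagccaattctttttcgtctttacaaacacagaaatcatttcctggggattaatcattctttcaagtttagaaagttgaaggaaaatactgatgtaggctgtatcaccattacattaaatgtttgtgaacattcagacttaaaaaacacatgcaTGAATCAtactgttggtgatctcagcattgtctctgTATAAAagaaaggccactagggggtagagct
Counted back from the start, the AP-1 match begins at position -67 in both, as TGAGTCA in MMP7 and TGAATCA in MMP10, and the TATA match begins at -30 in MMP7 and -31 in MMP10. Over all 35116 promoters of this table, 6.6% held TGANTCA and 10.7% held TATAAA in the same window. The promoters of MMP14, MMP15, TIMP1 and TIMP3 held no match to either. Of these 6 members, MMP10 alone held the GATA motif AGATAA, at -226, which was found in 9.2% of all promoters. The ETS motif AGGAAG was found in MMP7, at -169 and -145, in TIMP1, at -87, and in 28.7% of all promoters. These matches describe the letters of the windows and show no binding.

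The membrane-type proteases rose in Caco-2. MMP15, a membrane-type protease of many epithelia, had log2 values of 6.26 and 6.44 in Caco-2 shRNA arrays, against 3.94 and 4.99 in Caco-2 control arrays. Both shRNA arrays were higher, and the control arrays lay more than 1 unit apart. The change was 1.89 (SE 0.33, 95% interval 1.09 to 2.69, adjusted p = 0.00613), or 3.70-fold. In HUG1N the values were 6.82 and 7.09 in shRNA arrays, against 5.90 and 6.19 in control arrays. These groups did not overlap either, but the change of 0.91 (SE 0.33) did not pass the test (adjusted p = 0.0622, 0.00823 to 0.226 over 18 alternatives). It passed in 6 of them, among them without Caco-2 control replicate 1 or replicate 2 (adjusted p = 0.00823 each) and with HUG1N fitted alone (adjusted p = 0.0173). The HUG1N effect minus the Caco-2 effect was -0.98 (SE 0.47, adjusted p = 0.133, 95% interval -2.11 to 0.15). It was -0.46 without Caco-2 control replicate 1 (adjusted p = 0.199) and -1.51 without Caco-2 control replicate 2 (adjusted p = 0.0101).

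MMP14, the membrane-type protease that activates the proform of MMP2 together with TIMP2, was read by 4 probe sets that differed in size of change. The brightest had 6.31 and 7.21 in Caco-2 shRNA arrays, against 5.60 and 5.56 in Caco-2 control arrays. Both shRNA arrays were higher, with an SD of 0.64 in shRNA and 0.03 in control arrays (n = 2 each). The change was 1.18 (SE 0.27, adjusted p = 0.0159). It was 1.63 without Caco-2 shRNA replicate 1 and 0.73 without Caco-2 shRNA replicate 2. The call was lost without Caco-2 control replicate 1 (1.21, adjusted p = 0.0688), without Caco-2 control replicate 2 (1.16, adjusted p = 0.0771), when low genes were kept (adjusted p = 0.0669) and with Caco-2 fitted alone (adjusted p = 0.0601). The adjusted p ran from 0.000707 to 0.0771 over 18 alternatives.

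The other MMP14 probe sets were higher in Caco-2 shRNA arrays too. The next in brightness had 7.37 and 7.35 in Caco-2 shRNA arrays, against 4.76 and 4.86 in Caco-2 control arrays, a change of 2.55 (SE 0.31, adjusted p = 0.00188 over the 12758 probe sets tested). Another changed by 1.15 (SE 0.23, adjusted p = 0.0110 over the same probe sets), and the dimmest stayed under log2 4 in every array. In HUG1N the brightest probe set had 5.94 and 6.05 in shRNA arrays, against 6.03 and 5.91 in control arrays, and the groups overlapped. The change there was 0.02 (SE 0.27, 95% interval -0.62 to 0.67, adjusted p = 0.970). The HUG1N effect minus the Caco-2 effect was -1.16 (SE 0.38, adjusted p = 0.0476), close to the threshold, while the next in brightness gave -2.48 (SE 0.44, adjusted p = 0.00660 over probe sets). Of the 17 alternatives for the brightest probe set, 11 lost the call (adjusted p 0.00166 to 0.145 over all 17), among them those without either Caco-2 control array (-1.18 and -1.14, adjusted p = 0.109 and 0.119), either HUG1N control array (-1.10 and -1.22, adjusted p = 0.123 and 0.0944) or either HUG1N shRNA array (-1.11 and -1.21, adjusted p = 0.119 and 0.0946). Without Caco-2 shRNA replicate 2 the difference was -0.71 (adjusted p = 0.0130).

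**Figure D2:**
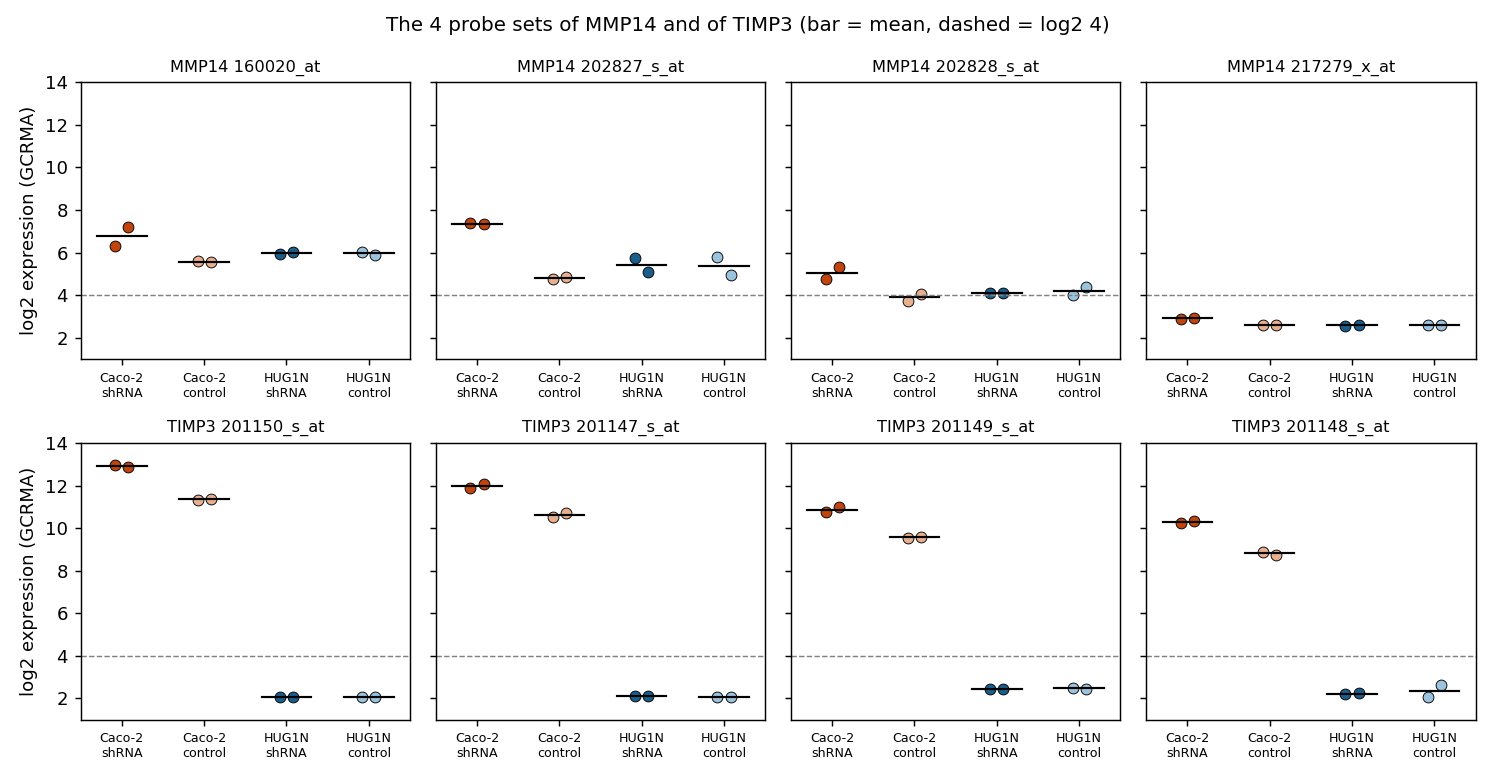
Log2 expression (y axis) of the 4 probe sets of MMP14 (top) and of TIMP3 (bottom), brightest at the left, by group (x axis), with arrays as points, means of 2 arrays as bars and a dashed line at log2 4. Every TIMP3 probe set is higher in Caco-2 shRNA than in Caco-2 control arrays and under the line in HUG1N, while the MMP14 probe sets differ in the size of the Caco-2 difference.

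Of the inhibitors, TIMP1 exceeded log2 4 in HUG1N arrays alone, TIMP3 in Caco-2 arrays alone and TIMP2 in all 8 arrays. TIMP1, a secreted inhibitor that is weak against membrane-type proteases, was measured in HUG1N and was at the low end in Caco-2. Its log2 values were 8.37 and 8.40 in HUG1N shRNA arrays, against 9.85 and 10.19 in HUG1N control arrays. Both shRNA arrays were lower, by a change of -1.63 (SE 0.12, 95% interval -1.92 to -1.35, adjusted p = 0.000197), or 3.11-fold. With HUG1N fitted alone, which leaves the Caco-2 arrays near the floor out of the spread, the adjusted p was 0.00500, the highest of 18 alternatives. In Caco-2, TIMP1 lay at 2.08 and 2.15 in shRNA arrays, against 2.15 and 2.08 in control arrays, which allows no fold change.

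TIMP3, the inhibitor that binds to the matrix and also blocks ADAM proteases, showed the opposite distribution. Its brightest probe set had log2 values of 12.96 and 12.89 in Caco-2 shRNA arrays, against 11.32 and 11.38 in Caco-2 control arrays. The groups lay far apart relative to their spread, and the change was 1.58 (SE 0.06, 95% interval 1.42 to 1.73, adjusted p = 2.37e-05), or 2.98-fold higher. With Caco-2 fitted alone the adjusted p was 0.00162. The other 3 probe sets changed by 1.38 (SE 0.09), 1.46 (SE 0.18) and 1.30 (SE 0.10), all called over probe sets. In HUG1N this probe set lay at 2.09 in all 4 arrays, and none of the 4 TIMP3 probe sets exceeded log2 4 there.

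TIMP2, the inhibitor that also links MMP14 to the proform of MMP2, was measured in both lines and moved in opposite directions. It had log2 values of 7.40 and 7.38 in HUG1N shRNA arrays, against 8.34 and 8.07 in HUG1N control arrays, a change of -0.81 (SE 0.14, 95% interval -1.16 to -0.47, adjusted p = 0.00456). In Caco-2 it had 8.27 and 8.53 in shRNA arrays, against 7.77 and 8.02 in control arrays, a change of 0.50 (SE 0.14, 95% interval 0.16 to 0.85, adjusted p = 0.0339). Both HUG1N shRNA arrays were below, and both Caco-2 shRNA arrays above, the control arrays of their line. The HUG1N effect minus the Caco-2 effect was -1.32 (SE 0.20, adjusted p = 0.00343). The Caco-2 call was lost in 8 of 18 alternatives (adjusted p 0.0227 to 0.163), namely without Caco-2 control replicate 1 (0.38, adjusted p = 0.163), Caco-2 control replicate 2 (0.63, adjusted p = 0.0512), replicate 2 of Caco-2 shRNA (0.37, adjusted p = 0.152) or either HUG1N shRNA array (adjusted p = 0.0566 each). The others were a block on replicate number (adjusted p = 0.0538), a fit that kept low genes (adjusted p = 0.0984) and Caco-2 fitted alone (adjusted p = 0.0611). The HUG1N call held in all 18.

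The promoters of TIMP1 and TIMP3 are shown because these genes were each measured in 1 of the lines and moved in opposite directions there. The letters are again the 250 bases before the RefSeq start, build GRCh38.p14, with no capitals since neither TGANTCA nor TATAAA occurs.
TIMP1 (chrX:47582186-47582435, plus strand): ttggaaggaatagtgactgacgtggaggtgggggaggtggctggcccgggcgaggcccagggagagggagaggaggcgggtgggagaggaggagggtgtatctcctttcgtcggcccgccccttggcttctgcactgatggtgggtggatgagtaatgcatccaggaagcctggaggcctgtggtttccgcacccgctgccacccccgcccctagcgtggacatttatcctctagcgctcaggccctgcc
TIMP3 (chr22:32801455-32801704, plus strand): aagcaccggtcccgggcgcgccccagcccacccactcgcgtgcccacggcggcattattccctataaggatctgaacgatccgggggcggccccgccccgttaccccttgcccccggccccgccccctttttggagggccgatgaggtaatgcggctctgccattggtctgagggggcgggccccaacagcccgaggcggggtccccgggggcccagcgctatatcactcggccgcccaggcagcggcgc
The G and C share was 64.8% in TIMP1 and 72.4% in TIMP3, against 33.6% in MMP7, 34.4% in MMP10 and a median of 58.0% over all promoters of the table. It was 56.8% in MMP14 and 74.8% in MMP15.

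Counted over the family, 4 of the 7 tested members rose in Caco-2 shRNA cells (MMP14, MMP15, TIMP2 and TIMP3) and 1 fell (MMP1). Of all genes tested, 38.7% were called in that comparison, 19.5% higher and 19.2% lower. MMP7 and TIMP1 were under log2 4 in every Caco-2 array. The other 5 were all called, against 40.4% of all genes over log2 4 in that line, 20.3% higher and 20.1% lower. The 5 called members became 3 (MMP1, MMP15 and TIMP3) without Caco-2 control replicate 1 or replicate 2. In HUG1N shRNA cells 1 member rose (MMP7) and 3 fell (MMP1, TIMP1 and TIMP2), against 48.7% of all genes called, 24.7% higher and 23.9% lower. TIMP3 was under log2 4 in every HUG1N array. Of the other 6, 4 were called, against 51.3% of all genes over log2 4 in HUG1N, 26.1% higher and 25.2% lower. For the difference between the lines, MMP7, TIMP1 and TIMP3 are not counted here. Each was under log2 4 in every array of 1 line, where a change below log2 4 could not have been seen. Of the 4 members over log2 4 in both lines (MMP1, MMP14, MMP15 and TIMP2), 3 were called, all downward, against 43.9% of the 6865 genes over log2 4 in both lines, 21.6% upward and 22.3% downward. Over all 7696 genes tested, 44.9% were called for the difference, 22.2% upward and 22.7% downward. With so few members these counts are small, and the filter shaped them. Among members over log2 4 in any array of the line, the median change was 1.18 in Caco-2 (5 members) and -0.40 in HUG1N (6 members), against -0.01 and 0.00 over all genes over log2 4 there.

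**Figure D3:**
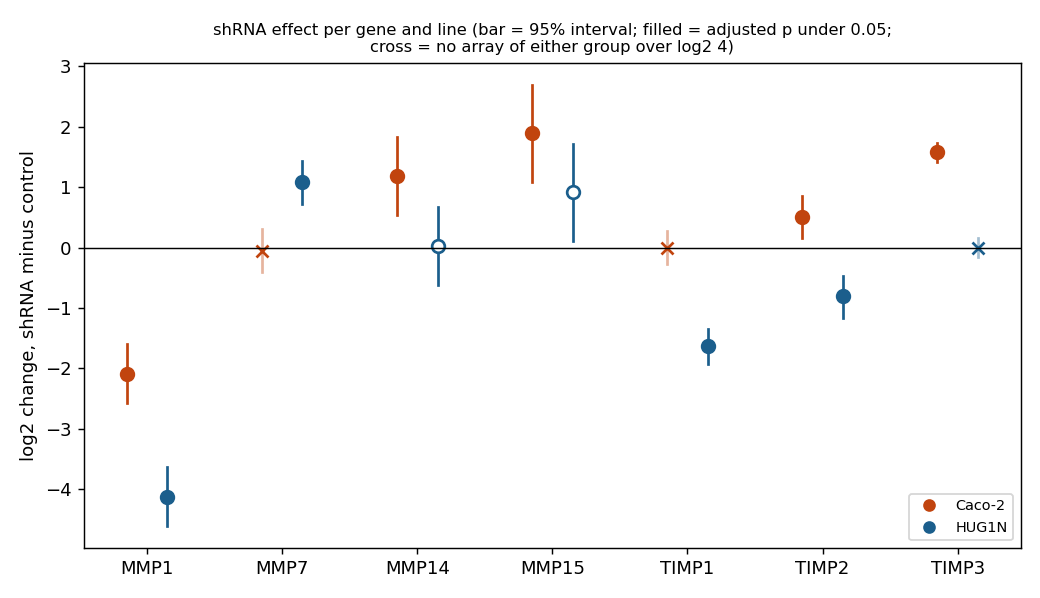
Log2 change, shRNA minus control (y axis), of the 7 tested genes in Caco-2 and HUG1N, with 95% intervals as bars. Filled points passed an adjusted p of 0.05, open points did not, and crosses mark lines in which no array of either group exceeded log2 4. MMP1 lies below 0 in both lines, and TIMP2 lies above 0 in Caco-2 and below it in HUG1N.

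**Figure D4:**
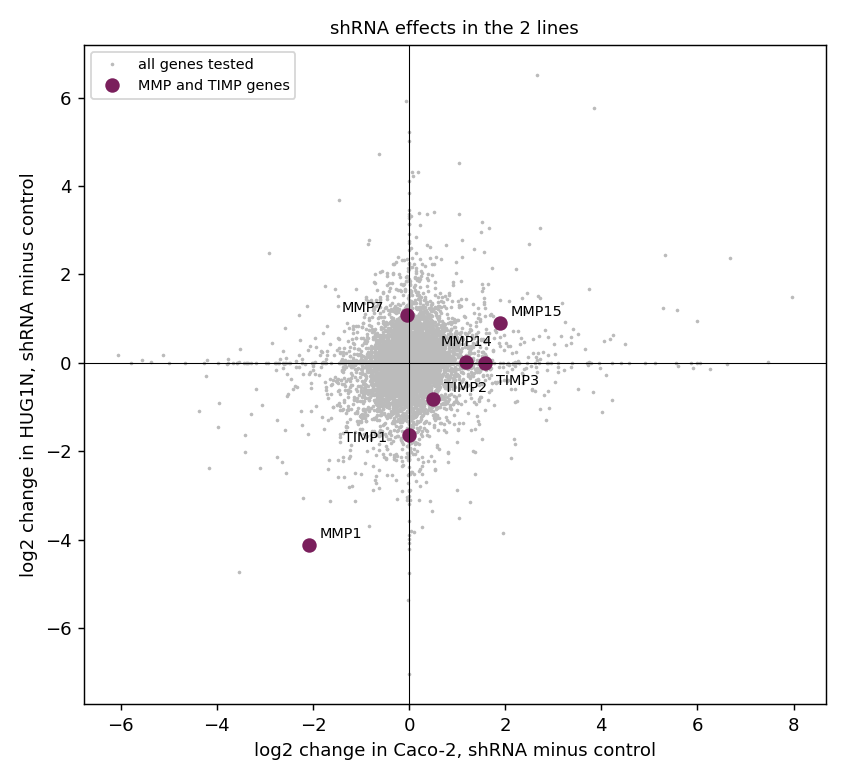
Log2 change with the shRNA in Caco-2 (x axis) and in HUG1N (y axis) of the 7696 genes tested (grey) and the 7 tested members (named). MMP1 sits in the lower left, at -2.09 and -4.12, and MMP7, TIMP1 and TIMP3 lie along an axis because 1 line was at the low end of the scale for each.

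The control cells of the lines already differed in which members they expressed. TIMP1 was 9.85 and 10.19 in HUG1N control arrays, against 2.15 and 2.08 in Caco-2 control arrays. It was at least 64.9-fold higher in HUG1N when log2 4 stands for Caco-2. TIMP3 was 2.09 in both HUG1N control arrays, against 11.32 and 11.38 in Caco-2 control arrays, at least 163-fold lower in HUG1N on the same footing. MMP1 was 4.42 log2 units higher in HUG1N control than in Caco-2 control cells (SE 0.20, adjusted p = 3.12e-06), which is 21.4-fold. MMP7 was at least 2.43-fold higher in HUG1N control cells and MMP15 was 1.58 log2 units higher there (SE 0.33, adjusted p = 0.00420). MMP14 and TIMP2 differed by 0.39 (SE 0.27, adjusted p = 0.217) and 0.31 (SE 0.14, adjusted p = 0.0879), with 95% intervals of -0.26 to 1.04 and -0.04 to 0.65. The MMP14 difference passed the test without either Caco-2 shRNA array (adjusted p = 0.00678 each, 0.00678 to 0.443 over 17 alternatives). Between the control groups 5 of 7 members were called, 4 higher and 1 lower in HUG1N, against 78.4% of all genes, 37.1% higher and 41.3% lower. MMP7, TIMP1 and TIMP3 are among the 5, and each passed the filter only through the line where it is high. The filter thus largely fixed their calls, and the count is no result about the members.

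Beyond the 10 members, 18 other MMP and TIMP genes were listed, and 15 had a probe set with a single gene name. None of the 15 exceeded log2 4 in 2 arrays, so none was tested, and MMP20 was the single one over log2 4 in any array. TIMP4, an inhibitor, reached 3.48 at most, in a Caco-2 control array.

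Genes of plasminogen activation, which can start MMP activation through plasmin, were called for all 4 tested members in Caco-2, where 2 rose and 2 fell (38.7% of all genes tested were called there), and for 1 of the 3 over log2 4 in HUG1N (51.3% of all genes over log2 4 there). PLAUR, the urokinase receptor, changed by 3.22 (SE 0.12, adjusted p = 1.80e-05), with means of 8.46 in Caco-2 shRNA and 5.24 in Caco-2 control cells. PLAU, the urokinase, changed by 0.63 (SE 0.15, adjusted p = 0.0178). SERPINF2, the plasmin inhibitor, averaged 3.86 in Caco-2 shRNA and 5.81 in Caco-2 control cells, at least 3.52-fold lower. It passed the filter only through Caco-2 control arrays. The filter thus largely fixed its call, and the count of 4 is no result about the list. SERPINE2, an inhibitor of plasminogen activators, fell at least 1.44-fold in Caco-2 (adjusted p = 0.0417). In HUG1N, SERPINE2 fell by 2.49 on the log2 scale (SE 0.34, adjusted p = 0.00180), while PLAUR (-0.17) and PLAU (-0.23) did not pass the test and SERPINF2 was under log2 4 in all HUG1N arrays.

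Among 7 tested genes of other MMP activators and inhibitors, 1 rose and 3 fell in Caco-2, where 38.7% of all genes were called. PCSK5, a proprotein convertase, changed by -1.70 (SE 0.22, adjusted p = 0.00190), ST14, the protease matriptase, by -0.27 (SE 0.06, adjusted p = 0.0193), and HPN, the protease hepsin, by 0.77 (SE 0.18, adjusted p = 0.0200). BSG, a membrane protein known to induce MMPs in neighbouring fibroblasts, changed by -0.65 (SE 0.16, adjusted p = 0.0227). In HUG1N 1 rose and 2 fell of the 6 over log2 4 there, a share near the 51.3% called over all such genes. BSG changed by -0.78 (SE 0.16, adjusted p = 0.00877), RECK, a membrane-anchored MMP inhibitor, by -0.19 (SE 0.06, adjusted p = 0.0412) and ST14 by 0.19 (SE 0.06, adjusted p = 0.0492). The convertase FURIN, which can activate membrane-type MMPs, changed by 0.06 in each line (SE 0.16 each), which did not pass the test.

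Of 13 tested matrix genes whose proteins MMPs can cut, 7 rose and 4 fell in Caco-2, against 19.5% and 19.2% of all genes tested. In HUG1N, 10 of them exceeded log2 4, of which 3 rose and 2 fell, against 26.1% and 25.2% of all genes over log2 4 there. Their median change was 0.28 in Caco-2 and 0.06 in HUG1N over the genes read in the line, against -0.01 and 0.00 over all such genes. In Caco-2 the laminin genes LAMB3 and LAMA5 changed by 0.88 (SE 0.06, adjusted p = 0.000222) and 0.73 (SE 0.07, adjusted p = 0.000553), and the fibronectin gene FN1 by -1.44 (SE 0.13, adjusted p = 0.000542). In HUG1N, LAMB1 changed by -1.29 (SE 0.09, adjusted p = 0.000181), LAMA5 by 0.88 (SE 0.07, adjusted p = 0.000266) and LAMB3 by 0.59 (SE 0.06, adjusted p = 0.000795). FN1, COL5A2 and NID1 were under log2 4 in all HUG1N arrays.

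Of 11 tested AP-1 and ETS factors, 7 fell in HUG1N by limma, where 23.9% of all genes fell. FOSL2 changed by -1.56 (SE 0.11, adjusted p = 0.000222), JUN by -0.96 (SE 0.08, adjusted p = 0.000336) and the ETS factor ETV4 by -0.85 (SE 0.14, adjusted p = 0.00341). The median of the list was -0.49 in HUG1N, and the ACTB gaps of those arrays were 3.69 and 3.77 in shRNA, against 2.35 and 2.68 in control cells. Their GAPDH gaps were 0.59 to 0.67 in HUG1N shRNA, against 0.37 to 0.44 in HUG1N control cells. FOS, at 0.11 (SE 0.46, adjusted p = 0.872), did not pass the test there. In Caco-2, 10 of the 11 exceeded log2 4, and of these 2 rose and 1 fell, with a median of 0.01. Of all genes over log2 4 there, 40.4% were called, 20.3% higher and 20.1% lower. JUNB changed by 1.40 (SE 0.19, adjusted p = 0.00258), JUN by -0.42 (SE 0.08, adjusted p = 0.00876), and the ETS factor ETV5 rose at least 1.12-fold (adjusted p = 0.0298).

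**Figure D5:**
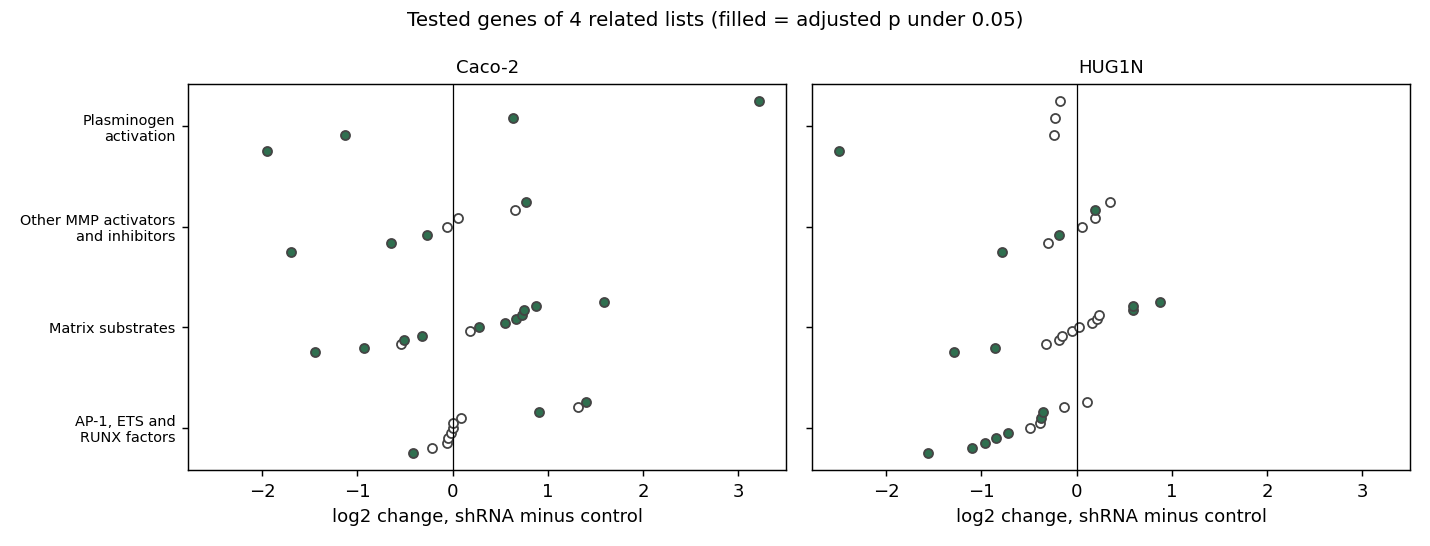
Log2 change, shRNA minus control (x axis), of the tested genes of 4 lists (rows, points spread vertically for legibility) in Caco-2 (left) and HUG1N (right). Filled points passed an adjusted p of 0.05, and open points include genes under log2 4 in every array of the line, such as SERPINF2 and FN1 in HUG1N. In HUG1N 7 of the 11 AP-1 and ETS genes are filled and lie below 0, and in Caco-2 all 4 plasminogen activation genes are filled, 2 on each side. The filter largely fixed the SERPINF2 call in Caco-2.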

How the data were processed

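Gene expression was measured on 8 Affymetrix 3′ arrays, 2 for each of 4 groups. The authors deposited log2 expression per probe set, computed with GCRMA according to the submitters' processing notes. No version or setting of it is recorded there. GCRMA equalises the arrays' distributions, which removes overall shifts, and low values pile up at 2.08. No further scaling was applied.

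Of 22277 probe sets, 19070 had 1 gene symbol, 1043 several and 2164 none here, and only the first kind entered gene tests. Symbols were updated through Entrez identifiers. Each of 11963 genes was read by its probe set of highest mean, and 7696 passed the filter (over log2 4 in at least 2 arrays). Tests used limma 3.58.1 in R 4.3.3 on the 4 group means with Benjamini-Hochberg adjustment over all genes tested, with 4 residual and 2.17 prior degrees of freedom. Where a group had no array over log2 4, a change is a bound of the brighter mean against 4, with no allowance for spread. Arrays at the floor hardly vary, which can make SE and p too small. The fit was tested on simulated data.

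Members and lists were chosen with earlier results of these data known. All members were named, and from each list up to 3 called genes a line with the smallest p. SERPINE2 and BSG in Caco-2, FURIN, FOS, COL5A2, NID1 and the uncalled plasminogen genes were named after their values were seen. Counts over genes with an array over log2 4 in the line were added after the data were seen. Genes of the lists without a single-symbol probe set were not analysed here. The number of arrays limits the precision. Alternatives changed the filter, the normalization, the variance model, the probe set, the lines in the fit, the floor and the least fold, added the replicate number as a block, or left out single arrays. Same-numbered arrays of different groups did not deviate together (correlation of deviations across genes -0.0629 to 0.0662), so no block was used.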

Additional observations from a re-analysis of the deposited data

Results flagged for a closer look

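Of the 4 members over log2 4 in both lines, 3 gave a shRNA effect that differed between HUG1N and Caco-2 by a test of the difference itself, where 43.9% of all genes over log2 4 in both lines were called. The values are the HUG1N effect minus the Caco-2 effect on the log2 scale, with limma adjusted p. MMP1, which fell in both lines, gave -2.03 (adjusted p = 0.00256). TIMP2, which fell in HUG1N and rose in Caco-2, gave -1.32 (adjusted p = 0.00343). MMP14, whose brightest probe set rose in Caco-2, gave -1.16 (adjusted p = 0.0476), a call lost in 11 of 17 alternatives. Another 3 members passed the same test without showing a difference between the lines. For each, 1 line lay under log2 4 in every array, and a change below log2 4 there could not have been seen. Their values restate the change in the line where each was measured: MMP7 gave 1.12 (adjusted p = 0.00645), TIMP1 gave -1.63 (adjusted p = 0.000825) and TIMP3 gave -1.58 (adjusted p = 0.000129). The HUG1N shRNA arrays in these differences had BioB controls of 4.52 and 4.77, against 9.89 and 10.03 in HUG1N control arrays, and the part of that in the differences was not tested.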

How the results depend on the processing

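Over 28 member values (7 genes in 4 comparisons) and 487 alternative values, 451 kept direction and side of the threshold, 23 lost a call, 10 gained one and 3 changed sign, and 20 of the 28 member values kept both throughout. The sign changes were of MMP14 in HUG1N, which was not called: -0.01 with the mean of probe sets, and -0.04 to 0.08 when single arrays were left out (-0.04 without HUG1N control replicate 2 and -0.03 without HUG1N shRNA replicate 2), against 0.02. The count of 5 called members in Caco-2 was 3 with no filter, 3 with the line fitted alone, and 3 to 5 when single arrays were left out. The genes called over the whole table numbered 742 in Caco-2, 903 in HUG1N, 1404 for the difference between effects and 3534 between controls with a 2-fold minimum, which removes small changes. With every probe set fitted, over 12758 probe sets, they numbered 4483, 5947, 5414 and 9696. Leaving out single arrays gave 1895 to 2974 called genes in Caco-2 against 2982. With the replicate number as a block, 4 members were called in Caco-2, 5 in HUG1N, 5 for the difference and 5 between controls. The counts for the difference and between controls include members at the floor in 1 line. That block ended the calls of TIMP2 in Caco-2 (0.50, adjusted p = 0.0538) and of the MMP14 difference (-1.16, adjusted p = 0.0555) and gave one to MMP15 in HUG1N (0.91, adjusted p = 0.0251). The cause of these changes was not tested. Other scalings moved the median change of all genes by at most 0.13 (between controls, medians centred, where TIMP2 then passed at 0.44, adjusted p = 0.0293). The MMP14 difference lost its call with medians centred (-1.09, adjusted p = 0.0613) and with quantile normalization (-1.15, adjusted p = 0.0543). MMP15 in HUG1N gained a call with medians centred (0.97, adjusted p = 0.0481). No called member changed sign under these scalings. With values under log2 4 open to no reading, falls of MMP2, MMP9 and MMP10 and of the members at the floor in 1 line could not be detected.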
